A study of Danio rerio with 32 samples.

Results

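Collagens are the structural proteins of the extracellular matrix, and the genes described here are the collagen genes of the zebrafish. Each chain winds with its partners into a helix in the endoplasmic reticulum, after prolyl and lysyl hydroxylases and chaperones have acted on it, and is then exported. Fibrillar collagens assemble into the banded fibrils of skin, bone, tendon and cartilage once their end pieces have been cut off, and FACIT collagens bind to the surface of those fibrils. Other classes form networks in basement membranes, beaded filaments, anchoring fibrils of the skin, or span the cell membrane. By 48 hpf a zebrafish embryo is building its notochord sheath, fin folds, epidermal basement membrane and the first cartilages of the head, all of which are rich in collagen.

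The members were all genes of the expression table whose RefSeq symbol starts with col, a type number, a and a chain number. This rule uses no measured values, but the set was chosen with earlier results of these data known. There were 57 of them among 22686 genes, all annotated as protein coding, and 3 further collagen genes of the annotation (col6a3, col8a1a and col10a1b) were not analysed here. The samples were pools of 9 whole Tropical 5D zebrafish collected at 48 hpf, with chorions removed, which had been exposed from 6 hpf to the DMSO vehicle alone (control) or to retene in DMSO, at 0.205 or 0.512 µM, at 1.28 or 3.2 µM, or at 8, 20 or 50 µM. Each of these 8 groups had 4 pools, and only fish that looked normal were collected. Retene is an alkylated phenanthrene, a polycyclic aromatic hydrocarbon. The sources do not say whether the pools came from separate spawnings, so the p-values measure the spread between these pools.

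Between 7720701 and 8656870 reads per pool lay on genes. Read numbers are given as normalized counts, that is reads divided by the size factor of the pool, which were recovered from the deposited values and are not scaled by gene length. Log2FC is the difference between the mean of a retene group and the control mean on the deposited log2-like scale, which compresses the differences of genes with few reads. A DEG is a gene with a Benjamini-Hochberg adjusted p under 0.05 in limma, adjusted over all 22686 genes. The trend is the slope over the 8 groups in order, in log2 units per step. On the first principal component 3 pools stood apart, control replicate 2 at a score of -30.3, replicate 4 of 8 µM at -26.2 and replicate 2 of 50 µM at -12.9. Fewer cells of a type and less RNA per cell cannot be told apart in whole larvae.

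At 50 µM, 8 of the 57 collagen genes were DEGs, of which 7 had lower and 1 had higher expression than the control, beside 2.48% of all genes (1.02% lower and 1.45% higher). The 7 that fell were col10a1a, col11a2, col11a1a and col2a1a, chains made by cartilage among other tissues, col17a1a of the epidermis, the FACIT chain col12a1b and the multiplexin col15a1b. The gene that rose was col5a3b, a chain of the fibrillar type V collagen. The estimate at 50 µM was below 0 in 44 of the 57 collagen genes (77.2%), against 48.8% of all genes, with a median Log2FC of -0.089 beside 0.0032 over all genes. All 4 pools of 50 µM lay below all 4 control pools for 9 members, beside 3.02% of all genes, and above them for 1, beside 4.13%. With the 3 pools that stood apart left out, which was tried once the data had been seen, 11 collagen genes were DEGs at 50 µM, 10 of them lower, beside 3.22% of all genes (1.87% lower), and 39 of the 57 estimates were below 0, beside 47.0%. In the trend, 9 collagen genes were called, 8 of them downward, beside 5.28% of all genes (2.73% upward and 2.55% downward), and with those 3 pools left out 13 were called, beside 6.56%. On leaving out 1 pool the 8 collagen DEGs at 50 µM became 4 to 12, while the DEGs among all genes, 562 with every pool, became 322 to 930. The collagen count was 4 without control replicate 2 or replicate 4 of 50 µM, 5 without control replicate 1 or replicate 1 of 50 µM, and 12 without replicate 2 of 50 µM. In a fit of only the 2 groups, 2 of the 8, col10a1a and col17a1a, were called, beside 182 of all 22686 genes. With no mean-variance trend col11a1a, col2a1a and col15a1b were not called, and the DEGs among all genes were 493. The trend count was 4 without replicate 1 and 5 without replicate 4 of 50 µM.

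**Figure D1:**
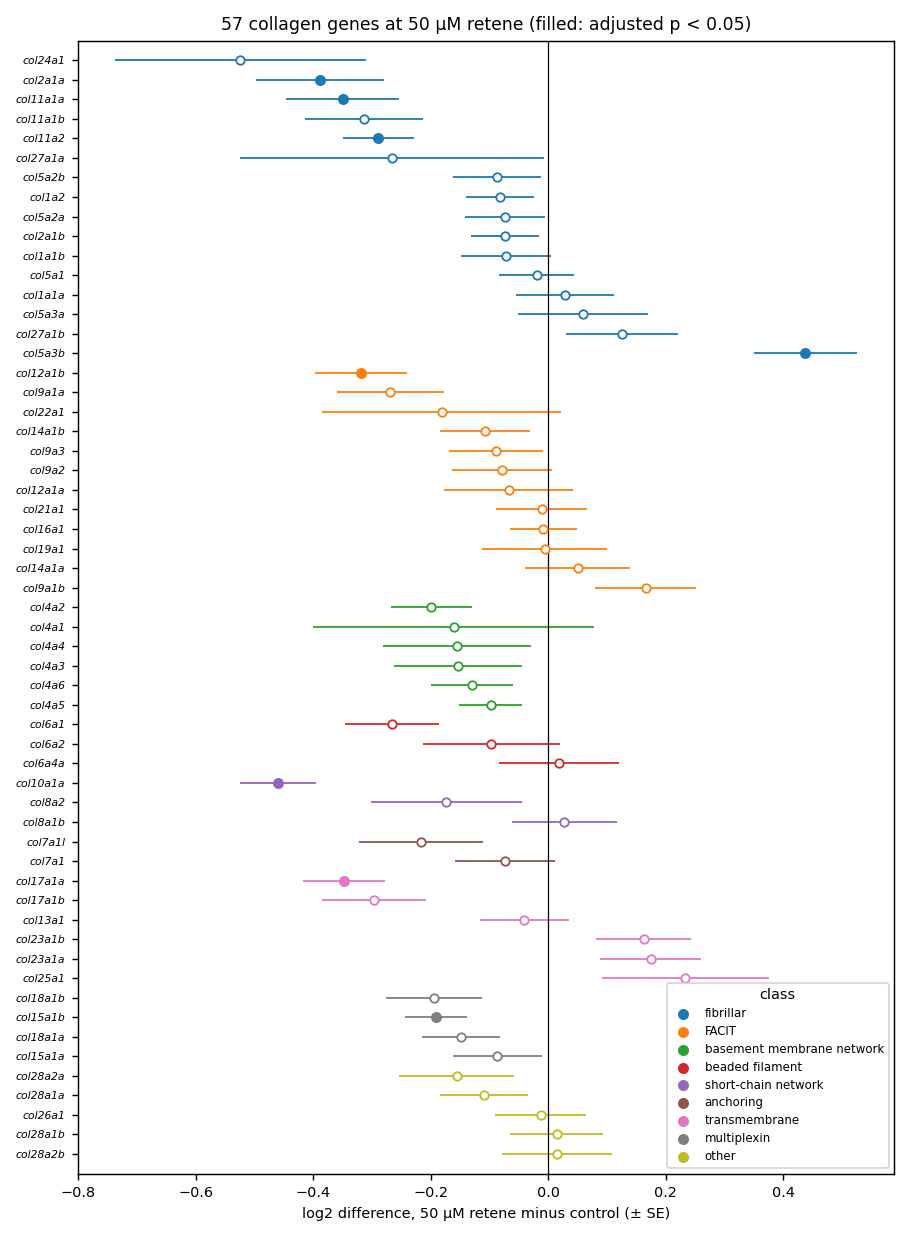
Log2FC at 50 µM retene minus control (horizontal axis, log2 units) of the 57 collagen genes, ordered by structural class, with the standard error of the limma fit on all 32 pools as bars. Filled points are the 8 DEGs, from -0.46 for col10a1a to 0.44 for col5a3b.

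At the lower concentrations few collagen genes passed the test. There was 1 collagen DEG at 20 µM, col10a1a, which was lower, beside 0.586% of all genes (0.198% lower). By limma there were 0 at the 5 concentrations from 0.205 to 8 µM, beside 0%, 0%, 0.0838%, 0.0838% and 0.344% of all genes in increasing order. An unadjusted p under 0.05 was reached by 7, 4, 11, 7 and 4 members there, beside 7.44%, 6.32%, 13%, 9.72% and 9.94% of all genes. Fits with voom on the recovered reads also called 0 members at these 5 concentrations. The estimates were below 0 for 45, 38, 43, 44, 37, 37 and 44 of the 57 members at the 7 concentrations in increasing order, with medians between -0.089 and -0.031, beside 48.1% to 53.3% of all genes. All 7 comparisons share the same 4 control pools, so these counts are not independent of each other. Without control replicate 2 they were 43, 36, 41, 38, 30, 31 and 36, beside 47.3% to 51.6% of all genes.

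**Figure D2:**
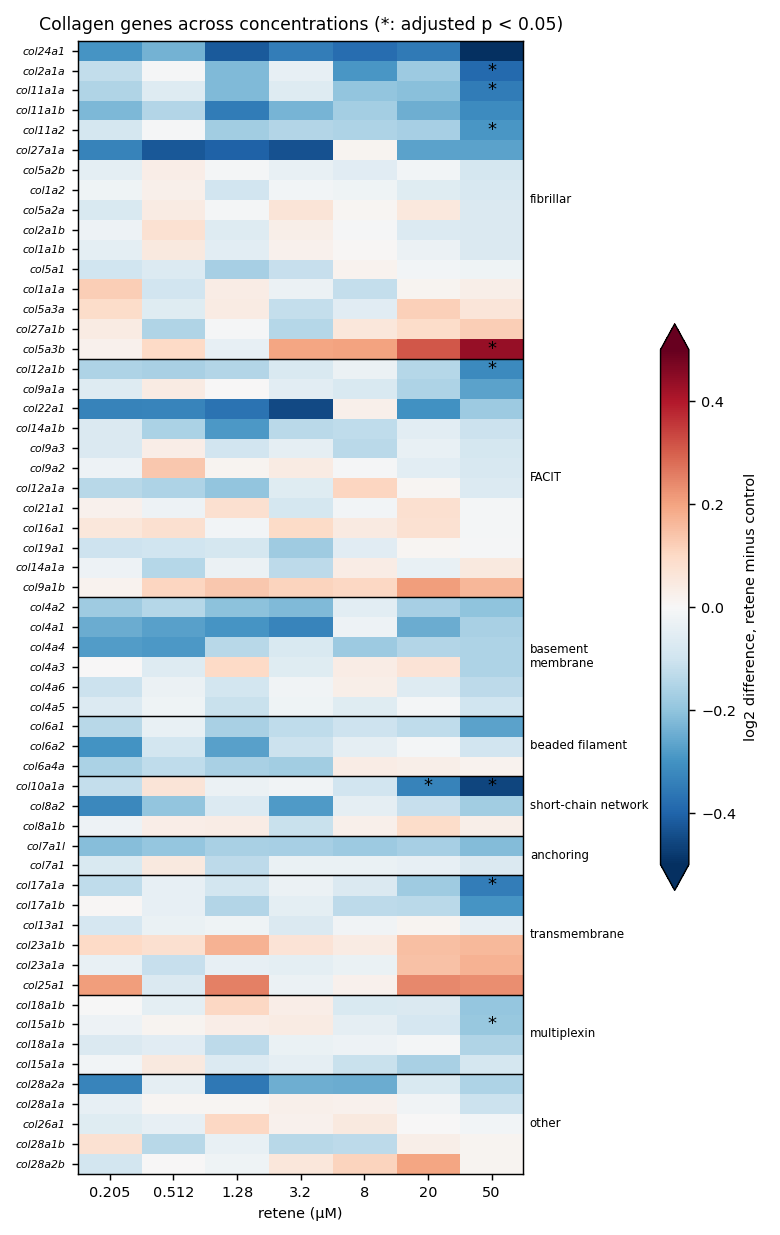
Log2FC (color, log2 units, clipped at 0.5 in either direction) of the 57 collagen genes, in the order of the classes, at the 7 retene concentrations. Asterisks mark adjusted p under 0.05, which 1 member reached at 20 µM and 8 members at 50 µM.

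Among the collagen DEGs at 50 µM the largest fall was that of col10a1a (GeneID 558919), a short-chain network collagen known from hypertrophic cartilage and, in fish, from the cells that lay down bone. Its normalized counts were 693, 618, 615 and 622 in the 4 pools of 50 µM, against 1046, 812, 864 and 943 in the 4 control pools, with no overlap (Log2FC -0.46, standard error 0.065, limma adjusted p = 1.76e-05). At 20 µM they were 685, 679, 744 and 706, also below all control pools (Log2FC -0.33, standard error 0.065, adjusted p = 0.00482), a call that was lost in a fit of only these 2 groups. From 0.205 to 8 µM the group means ran between 832 and 961 and the pools overlapped the control. The slope was -0.057 per step (adjusted p = 1.05e-06). Among the alternatives at 50 µM, col10a1a was called under all 17 tried, leaving out each of the 8 pools included. The other short-chain members, col8a2 and col8a1b, which form networks in vessel walls and the eye, had Log2FC values of -0.17 and 0.027 and were not DEGs.

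The cartilage fibril is a copolymer of type II, type XI and type IX collagen. Of its chains, col11a2, col11a1a and col2a1a were lower at 50 µM, while col11a1b, col2a1b and the type IX chains were not DEGs. The type XI chain col11a2 (GeneID 561679) had 3652, 4033, 3896 and 3421 normalized counts at 50 µM, against 4732, 4509.9, 4351 and 4814 in the control (Log2FC -0.29, standard error 0.060, limma adjusted p = 0.00390). All 4 pools lay below the control pools, and the call was lost in a fit of only the 2 groups (adjusted p = 0.0776). At 1.28 and 20 µM, where it was not a DEG, they did so too, with 3994 to 4128 and 3999.9 to 4164. The other type XI chain, col11a1a, had 1236, 1741, 1652 and 1422 at 50 µM, against 1969, 2042, 1871 and 1886 in the control (Log2FC -0.35, standard error 0.097, limma adjusted p = 0.0439). Its paralog col11a1b had 1508, 2154, 1625 and 1642 at 50 µM, against 2121, 2481, 2069 and 1991 in the control, and missed the threshold (Log2FC -0.31, adjusted p = 0.0981) with 1 pool of 50 µM, replicate 2, inside the control range. With that replicate left out col11a1b was called (Log2FC -0.42, adjusted p = 0.0123). It was not called on leaving out any other pool of either group (limma adjusted p = 0.0899 to 0.306, the highest without control replicate 2).

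Type II collagen is the main fibril of cartilage and of the notochord sheath and has a pair of paralogs in zebrafish. The chain col2a1a had 103, 138, 146 and 100.3 normalized counts at 50 µM, against 186, 181, 179.6 and 186 in the control, a tight control group with no overlap (Log2FC -0.39, standard error 0.11, limma adjusted p = 0.0469). Its paralog col2a1b had 7673 to 9061 at 50 µM and 7991 to 9864 in the control (Log2FC -0.074, adjusted p = 0.585). Whether reads were split between the paralogs, and whether their changes differ, was not tested. The calls of col2a1a and col11a1a at 50 µM were lost on leaving out any of the control pools or replicate 1 or 4 of 50 µM. Their adjusted p-values then lay between 0.0799 and 0.168 for col2a1a and between 0.0639 and 0.228 for col11a1a.

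Type IX collagen is the FACIT that coats the type II fibril. Its chain col9a1a was called in the trend (slope -0.032, adjusted p = 0.0476) and not at 50 µM, where it had 585, 551, 612 and 544 normalized counts, against 814, 653, 574 and 829 in the control (Log2FC -0.27, adjusted p = 0.119). Control replicate 3 lay inside the range of 50 µM. This trend call was the nearest to the threshold of the 9, and it held in 12 of the 32 fits with 1 pool left out. The paralog col9a1b, which passed neither test, had 3271, 3143, 3342 and 3349.9 at 50 µM, against 3085, 2457, 2588 and 3646 in the control (Log2FC 0.17, adjusted p = 0.363). The ratio of col9a1b to col9a1a within a pool, looked at after these values were seen and given with no test, was 5.46 to 6.16 at 50 µM and 3.77 to 4.51 in the control, with means of 4.12 in the control and 4.43, 4.29, 4.52, 4.65, 4.73, 5.40 and 5.73 at the 7 concentrations in increasing order. The other type IX chains, col9a2 and col9a3, had Log2FC values of -0.079 and -0.089 and were not DEGs.

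Some markers of cartilage were also lower. Of 5 cartilage markers, 2 were lower at 50 µM, beside 1.02% of all genes: acana, the core protein of aggrecan (Log2FC -0.44, adjusted p = 0.00627), and hapln1a, its link protein (Log2FC -0.43, adjusted p = 3.08e-05). The Log2FC values of sox9a, which is also among the regulators given further on, matn1 and cnmd were -0.54, -0.021 and 0.13 and did not pass. The summed normalized count of the 5 ran between 3905 and 4473 in the pools of 50 µM and between 4959 and 5527 in the control, with no overlap (for single genes, 3.02% of all genes had all 4 pools of 50 µM below the control) and no marker at 0 reads. Over 6 notochord markers the sums were 2529 to 2738 at 50 µM and 2494 to 2659 in the control, and over 5 osteoblast markers 135 to 181 at 50 µM and 165 to 184 in the control. By limma 0 markers of these lists were called, with 0 at an unadjusted p under 0.05 and 0 by voom. Among the other marker lists, the summed count of 2 hatching gland markers was 3924 to 5546 at 50 µM and 2708 to 3530.2 in the control. These ranges did not overlap (for single genes, 4.13% of all genes had all 4 pools of 50 µM above the control), and voom called 0 of these markers. The sums for fin fold and fibroblast, tendon, skeletal muscle, endothelium, blood, liver and yolk, and brain and neuron overlapped between the groups. In these lists voom called 1 fin fold and fibroblast marker and 1 brain and neuron marker at 50 µM, beside 550 of all 22686 genes. The part of the cartilage markers in the falls of the collagen genes was not tested.

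**Figure D3:**
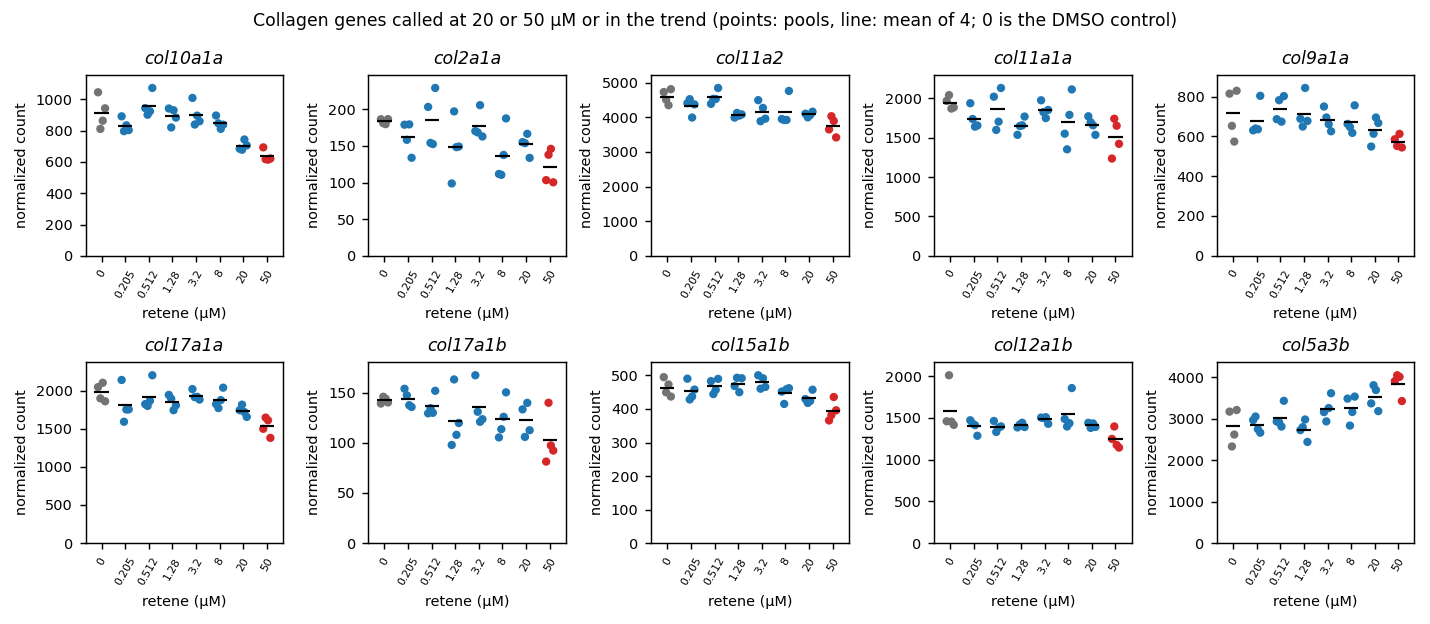
Normalized counts (vertical axes, from 0) in each of the 32 pools, as points, against the retene concentration in µM, with 0 for the DMSO control and lines for group means of 4 pools, for the 10 collagen genes called at 20 or 50 µM or in the trend. Control pools are gray and pools of 50 µM red. The pools of 50 µM lie below all control pools for 7 of the genes and above them for col5a3b.

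The gene that rose, col5a3b (GeneID 100463515), encodes a chain of type V collagen, which sets the diameter of type I fibrils. It had 3906, 4048, 4011 and 3426 normalized counts at 50 µM, against 3171, 2331, 2618 and 3209.6 in the control (Log2FC 0.44, standard error 0.088, limma adjusted p = 0.00290). The lowest pool of 50 µM was above the highest control pool, and the group means over the series were 2833 for the control, then 2858, 3022, 2736, 3242, 3254, 3513 and 3848 with increasing retene. The slope was 0.060 (adjusted p = 7.47e-05), positive in every fit with 1 of the 32 pools left out. The call at 50 µM was kept without any 1 of the 8 pools and lost in a fit of only the 2 groups (adjusted p = 0.0739). The other type V chains had Log2FC values of -0.020 for col5a1, -0.074 for col5a2a, -0.088 for col5a2b and 0.059 for its paralog col5a3a, none of which was a DEG. The ratio of col5a3b to col5a1 within a pool, also looked at after the values were seen and given with no test, was 0.854 to 0.909 at 50 µM and 0.468 to 0.761 in the control. The lowest control ratio was that of replicate 2, which had the lowest col5a3b, 2331, and the highest col5a1, 4984, of the control pools. Group means were 0.650 in the control and 0.698, 0.722, 0.699, 0.801, 0.731, 0.805 and 0.886 with increasing retene, and a pool of 3.2 µM reached 0.915.

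Read numbers differed widely between the members. The mean normalized count was over 1000 in 21 members, between 100 and 1000 in 18, between 10 and 100 in 16 and under 10 in 2. A member with few reads has more counting error. The standard error of the Log2FC at 50 µM was as high as 0.26 for col27a1a, beside 0.053 for col15a1b. The part of counting error in the value of col27a1a was not tested, and in this gene single pools stood far above their group mates. Control replicate 2 had 104 normalized counts, against 12.8 to 17.9, and replicate 4 of 8 µM had 191, against 7.86 to 11.7. In the later annotation used for names, 31 of the 57 members overlap another annotated gene, 10 of them a protein-coding one, and whether reads were shared with it was not tested.

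Type I collagen, the main fibril of skin, tendon and bone, was the largest part of the collagen reads. Together col1a1b and col1a2 took 36.2% to 43.8% of them per pool. The chain col1a1b had 22923 to 25312 normalized counts at 50 µM and 20609 to 27915 in the control, and col1a2 had 16352 to 17874 at 50 µM and 15793 to 19443 in the control. The ranges overlapped and neither was a DEG (Log2FC -0.072 and -0.082, adjusted p = 0.714 and 0.539). With quantile normalization col1a2 was called at 1.28 and 50 µM. Reads on the annotated col1a1a were scarce, with a mean of 2.41 normalized counts and 0 reads in some pools, the only member of which this was so. Whether reads that map to several genes, or a gene model that differs between GRCz11 and the later assembly, play a part in this low value was not tested. All collagen genes together held 1.19% to 1.37% of the reads of a pool, with 1.188% to 1.273% at 50 µM and 1.311% to 1.372% in the control. The pools of 0.205, 1.28 and 3.2 µM, with 1.213% to 1.299%, 1.215% to 1.266% and 1.268% to 1.308%, also lay below all control pools, so the share did not follow the order of concentrations.

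Type XVII collagen spans the membrane of basal keratinocytes at the hemidesmosome and ties the epidermis to its basement membrane. The chain col17a1a (GeneID 557257) had 1498, 1645, 1609.8 and 1379 normalized counts at 50 µM, against 2045, 1897, 2102 and 1859 in the control, all 4 below all 4 (Log2FC -0.35, standard error 0.070, limma adjusted p = 0.00281). It was called under all 17 alternatives at 50 µM. In the annotation the gene overlaps a protein-coding gene, herc56.2. The authors counted with HTSeq at default settings, which assign reads by strand, and whether the library kit kept the strand is not given in the sources used here. Its paralog col17a1b had 81.2, 139.8, 97.3 and 92.2 at 50 µM, against 139, 146, 144 and 140.1 in the control, so that 3 of the 4 pools were below the control and replicate 2 was inside its range. It missed the threshold at 50 µM (Log2FC -0.30, adjusted p = 0.0719), was called there with that replicate left out (Log2FC -0.39, adjusted p = 0.00765), and was called in the trend (slope -0.035, adjusted p = 0.0254). At 50 µM col17a1b was not called on leaving out any other pool of either group (limma adjusted p = 0.107 to 0.263). Of the other membrane-spanning collagens, col13a1, col23a1a, col23a1b and col25a1 had Log2FC values of -0.041, 0.17, 0.16 and 0.23, with no DEG.

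Of 4 basal epidermis markers 1 was lower at 50 µM, beside 1.02% of all genes. This was krt4 (Log2FC -0.33, adjusted p = 0.00363), a keratin better known from the superficial layer. The Log2FC values of tp63, krt5 and lamb4 were -0.14, 0.14 and -0.17 and did not pass. The summed level of the 4 was 67419.9 to 77152 normalized counts at 50 µM and 78296 to 96242 in the control. These ranges did not overlap, and for single genes 3.02% of all genes had all 4 pools of 50 µM below the control. The part of krt4 in this sum was not tested. No marker was at 0 reads. The part of these markers in the fall of col17a1a was not tested. Type VII collagen forms the fibrils that anchor this basement membrane to the dermis. Its genes col7a1 and col7a1l had Log2FC values of -0.074 and -0.22 and were not DEGs (adjusted p = 0.739 and 0.323).

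Among the multiplexins, basement membrane collagens that carry sugar chains, all 4 members had estimates below 0 at 50 µM, beside 48.8% of all genes, and 1 was a DEG, beside 2.48%. This was col15a1b, with 366, 382, 436 and 396 normalized counts at 50 µM and 495, 449.7, 473 and 437 in the control (Log2FC -0.19, standard error 0.053, limma adjusted p = 0.0454). The gap between the groups was narrow, 436 against 437, and the call at 50 µM was lost without control replicate 1, 2 or 3 or replicate 1, 2 or 4 of 50 µM (adjusted p = 0.0739 to 0.182). The trend (slope -0.021, adjusted p = 0.0242) was called in 29 of the 32 fits with 1 pool left out. The others, col15a1a, col18a1a and col18a1b, had Log2FC values of -0.087, -0.15 and -0.19. Type IV collagen is the sheet of every basement membrane. All 6 of its genes had estimates below 0 at 50 µM, also beside 48.8%, from -0.20 for col4a2 to -0.10 for col4a5, and 0 were DEGs by limma (1 at an unadjusted p under 0.05, beside 15.2% of all genes, and 0 by voom). For col4a1 and col4a3 the control mean was raised by control replicate 2. That pool had 278 for col4a1, against 54.5 to 67.0 in the other control pools and 45.1 to 116 at 50 µM. For col4a3 it had 71.4, against 23.7 to 40.4 in the other control pools and 26.8 to 38.5 at 50 µM. For col4a5 the 4 pools of 50 µM, at 3673, 3803, 3653 and 3433, were below the control pools at 3899.9, 3863, 3939 and 3907 by a small margin (Log2FC -0.10, adjusted p = 0.395).

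The last DEG, col12a1b, is a FACIT that binds type I fibrils in fascia and tendon. It had 1248, 1397, 1175 and 1144 normalized counts at 50 µM, against 1459, 2010.1, 1455 and 1416 in the control (Log2FC -0.32, standard error 0.079, limma adjusted p = 0.0188). All 4 pools were below the control, but control replicate 2 was far above the other control pools, and without it the call was lost (Log2FC -0.21, adjusted p = 0.142). It was also lost without replicate 3 (adjusted p = 0.0746) or replicate 4 of 50 µM (adjusted p = 0.0888). In the annotation it overlaps another protein-coding gene. The trend was not called (adjusted p = 0.193). Of the 3 measured genes of type VI collagen, which makes beaded filaments around cells, 0 were DEGs by limma or voom. By limma 1 of them, col6a1, had an unadjusted p under 0.05, beside 15.2% of all genes. The counts of col6a1 were 1087, 1291, 1085 and 957 at 50 µM and 1269.7, 1551, 1276 and 1289.6 in the control (Log2FC -0.27, adjusted p = 0.0738), and it was called without replicate 2 of 50 µM (adjusted p = 0.0144). On leaving out any other pool of either group col6a1 was not called (limma adjusted p = 0.083 to 0.284, the highest without control replicate 2). With quantile normalization and every pool kept, col6a1 was called at 50 µM. The remaining members include col28a1a and col28a2a, with Log2FC values of -0.11 and -0.16, and col24a1, a fibrillar chain with few reads, with -0.52 (standard error 0.21, adjusted p = 0.22).

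Single pools decided the values of several collagen genes with few reads, which are named here because of these values. The FACIT col22a1 of muscle ends had 209.6 normalized counts in control replicate 2 and 212 in replicate 4 of 8 µM, and between 32.02 and 77.0 in all other pools. The fibrillar col27a1a had 104 and 191 in the same pools, 49.2 in replicate 2 of 50 µM, and 22.5 or less in the others. The basement membrane chain col4a1 had 278 and 266. Relative to the mean of the other 3 pools of the group, 8 of 55 members with enough reads were at least 1.5-fold higher in control replicate 2 and 11 of 55 in replicate 4 of 8 µM, beside 11.9% of all genes in each, and 4 of 55 in replicate 2 of 50 µM, beside 6.45%.

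**Figure D4:**
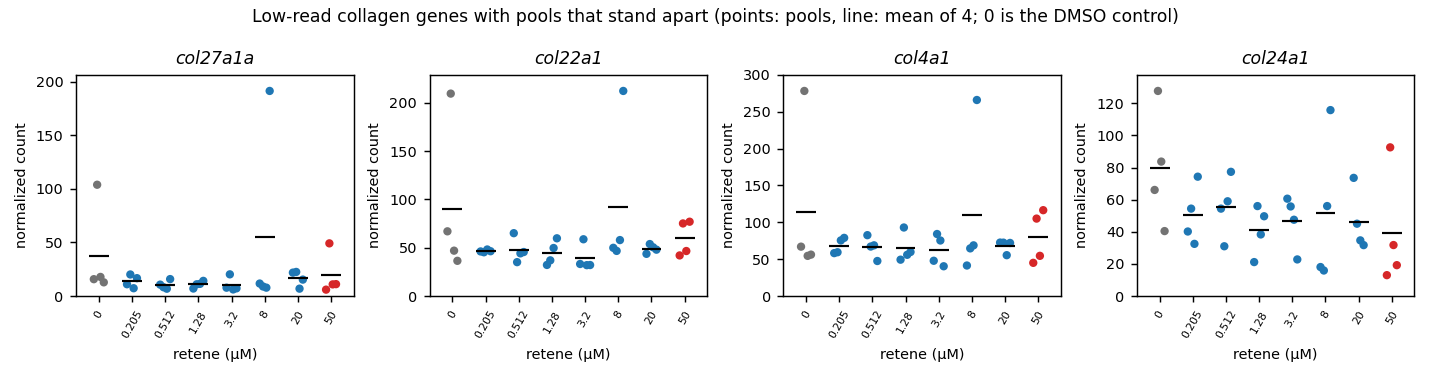
Normalized counts (vertical axes, from 0) of 4 collagen genes with few reads in each of the 32 pools, against the retene concentration in µM, with 0 for the DMSO control and lines for the means of 4 pools. A pool of the control and a pool of 8 µM stand far above the rest for col27a1a, col22a1 and col4a1, at 104 and 191 for col27a1a.

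Genes that make, cut, bind or regulate collagen were taken from 7 lists of 106 genes, chosen with earlier results of these data known. At 50 µM, 11 of them were DEGs, 6 higher and 5 lower, beside 2.48% of all genes, and 16 were called in the trend, 6 upward and 10 downward, beside 5.28%. With the 3 pools that stood apart left out 14 were called at 50 µM, beside 3.22% of all genes. In a fit of only the 2 groups 5 were called, beside 182 of all 22686 genes. The chaperone serpinh1b, or Hsp47, which binds the collagen helix in the endoplasmic reticulum, was lower already at 20 µM. It had 501, 501, 438 and 419 normalized counts at 20 µM and 620.3, 480.1, 429.7 and 397 at 50 µM, against 1115, 920.3, 786 and 752 in the control. Both groups lay below the control pools, with a Log2FC of -0.81 at 20 µM (adjusted p = 1.55e-04) and -0.78 at 50 µM (adjusted p = 1.35e-04). It was the only DEG of 15 chaperone and export genes at 50 µM, and sec23b, a coat protein of the vesicles that leave the endoplasmic reticulum, was called in the trend (slope -0.060, adjusted p = 0.00188).

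Of 18 genes for hydroxylation and glycosylation of the chains, 16 had estimates below 0 at 50 µM, beside 48.8% of all genes, and 1 was a DEG, beside 2.48%. This was plod2, a lysyl hydroxylase of the cross-linking sites, with 242, 246, 270.0 and 253 normalized counts at 50 µM and 326, 328, 318 and 319 in the control (Log2FC -0.27, standard error 0.056, limma adjusted p = 0.00432). In the trend 5 were called, all downward, beside 2.55% of all genes: plod2, the lysyl hydroxylases plod1a and plod3, and the prolyl hydroxylases p4ha1b and p4ha2 (those other than plod2 named after their values were seen), with slopes between -0.037 and -0.022. Of 20 genes for propeptide cleavage and cross-linking 1 was a DEG, also beside 2.48%. This was bmp1a, the proteinase that removes the carboxyl end piece of fibrillar procollagen. It was higher, with 1146, 1019, 1026 and 1006 at 50 µM and 762, 709, 770.2 and 707 in the control (Log2FC 0.46, standard error 0.073, limma adjusted p = 1.27e-04). At 8 µM all 4 pools, at 876 to 1018, were already above the control (adjusted p = 0.0760).

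Of 13 genes for collagen-degrading enzymes and their inhibitors, 3 were higher at 50 µM, beside 1.45% of all genes, and 0 were lower by limma, beside 1.02%. The collagenase mmp13a had 161, 109, 127 and 166 normalized counts at 50 µM, against 67.0, 52.4, 57.4 and 60.2 in the control (Log2FC 0.68, standard error 0.10, limma adjusted p = 6.23e-05), and was a DEG from 8 µM (Log2FC 0.52, adjusted p = 0.00959). The membrane-bound mmp14a, which cleaves fibrils and activates mmp2, had 767, 718, 734 and 699 at 50 µM, against 627, 592, 612 and 595 in the control (Log2FC 0.23, standard error 0.050, limma adjusted p = 0.00579). The gelatinase mmp2 had 1455, 1267, 1331 and 1278 at 50 µM, against 1129.8, 1121, 1209 and 1142 in the control (Log2FC 0.19, standard error 0.054, limma adjusted p = 0.0437), a call that was lost without control replicate 1, 2 or 4 or replicate 1, 3 or 4 of 50 µM (adjusted p = 0.0549 to 0.208). None of the 10 integrin and discoidin receptor genes was a DEG by limma, with 2 at an unadjusted p under 0.05 (beside 15.2% of all genes) and 0 by voom.

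Among 18 matrix partners, tnxbb, a tenascin that binds fibrils, was higher at 50 µM with 669.9 to 794 normalized counts, against 535 to 618 in the control (Log2FC 0.31, adjusted p = 0.0177). Periostin postna, with 88.1 to 101 at 50 µM against 124 to 151 in the control, and the basement membrane linker nid1a, with 372 to 441 at 50 µM against 457 to 549.7 in the control, were lower (Log2FC -0.30 and -0.29, adjusted p = 0.0144 and 0.0181). The pools of 50 µM did not overlap the control in these 3 genes, but each call was lost without control replicate 2 or replicate 4 of 50 µM. That of tnxbb was also lost without control replicate 4, and that of nid1a without control replicate 1 or replicate 1 of 50 µM, and the adjusted p-values in these fits lay between 0.0557 and 0.0926. Of 12 transcription regulators, prrx1a of limb and fin mesenchyme was higher, with 796, 681, 709.6 and 661 at 50 µM and 461, 446, 538 and 507 in the control (Log2FC 0.47, standard error 0.060, limma adjusted p = 3.70e-06), and was a DEG from 8 µM. The gene sox9b, a paralog of the cartilage regulator that drives type II collagen genes, was lower, with 894, 1023, 856 and 959 at 50 µM and 1358, 1120.3, 1359.9 and 1168 in the control (Log2FC -0.39, standard error 0.085, limma adjusted p = 0.00711). Its paralog sox9a had 291, 666, 335 and 355 at 50 µM and 578, 852, 543 and 522 in the control, with replicate 2 the highest pool of each group, and was not a DEG (Log2FC -0.54, standard error 0.20, adjusted p = 0.161).

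**Figure D5:**
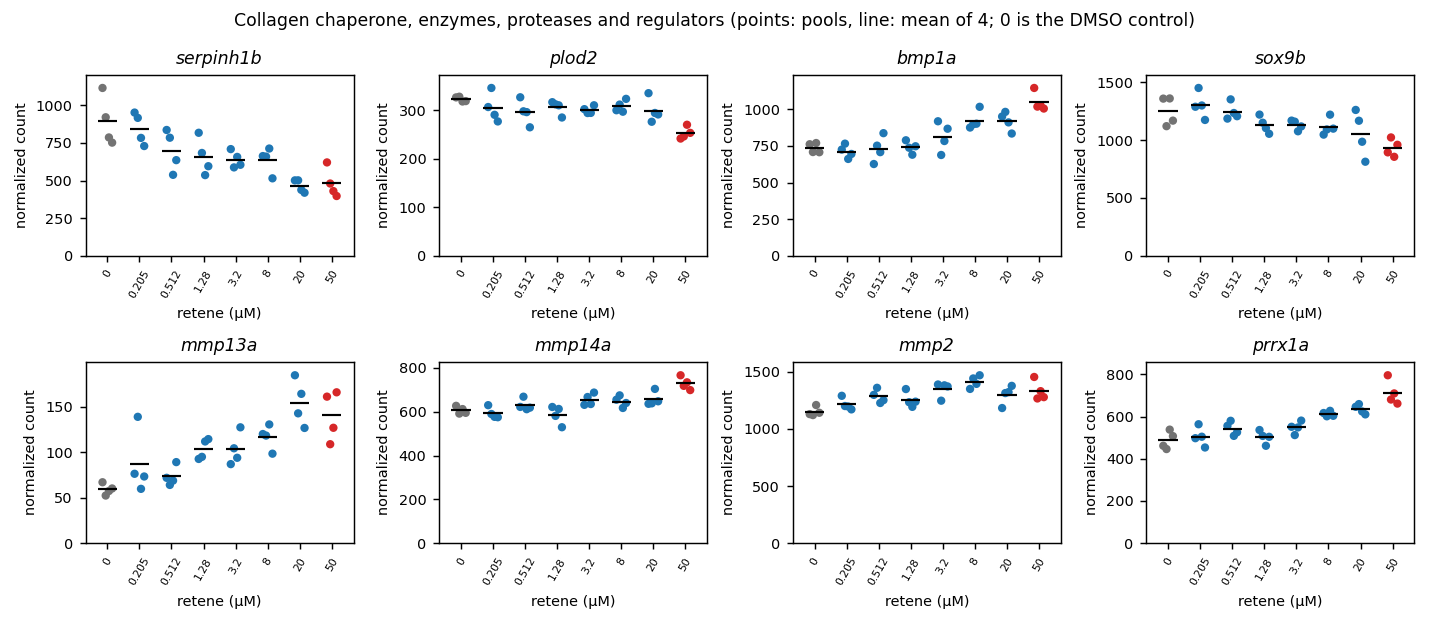
Normalized counts (vertical axes, from 0) of 8 genes that act on collagen or regulate it, in each of the 32 pools, against the retene concentration in µM, with 0 for the DMSO control and lines for the means of 4 pools. At 50 µM all pools lie below the control pools for serpinh1b, plod2 and sox9b, and above them for bmp1a, mmp13a, mmp14a, mmp2 and prrx1a.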

How the data were processed

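mRNA-seq of 32 pools of 9 larvae was used, and each pool was assigned to its group by its title. The authors aligned reads to GRCz11 with STAR, counted them with HTSeq at an alignment quality of at least 10, removed genes with a count of 0 in 8 or more pools and used DESeq2 for normalization. Values deposited by the authors are log2-like, a variance-stabilizing transformation of normalized counts, which was inferred from the values. Its closed form was reversed, and 100.0% of the values became whole reads (within 0.01 reads) after multiplication by size factors between 0.940 and 1.077. No binomial intervals are given, since the spread between pools exceeds counting error, and PCR reads are not independent molecules.

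Gene symbols are those of RefSeq on GRCz12tu, a later assembly, and covered 21030 of 22686 genes. No coordinates or sequences are printed.

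Each concentration was compared with the control, and a linear trend with scores from 0 to 7 was tested over the groups, with limma 3.58.1 in R 4.3.3 on the deposited values, with 1 mean per group and a mean-variance trend, and p-values were adjusted over all genes (Benjamini-Hochberg, 0.05). The tables and plots were made in Python 3.11.15 with NumPy 2.4.6, pandas 2.3.3 and matplotlib 3.10.9. The fit was tested on simulated data with independent counts and no pools that stood apart, so that test does not cover such pools.

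The members and lists were chosen with earlier results of these data known. Genes named are the collagen genes called, the 2 with the most reads in each class, the 2 uncalled ones with the largest differences at 50 µM, at most 3 called genes per pathway list, and serpinh1b. Other members, and the uncalled or trend-called list genes named, were added after their values were seen. Alternatives were log2(normalized count + 0.5) and + 5, a mean normalized count of at least 10, voom on the recovered reads, no mean-variance trend, quantile normalization, a replicate block, an adjusted p under 0.01, the compared groups alone, each pool left out and, added after the data were seen, 3 outlying pools left out.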

Additional observations from a re-analysis of the deposited data

Results flagged for a closer look

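A pool of a group of 4 was marked where its gap to the nearest other pool was larger, as a share of the range of the group, than Dixon's critical value for 4 samples. Among 84 groups tested 5 had such a pool, and chance alone marks about 1 in 20. In replicate 1 of 50 µM, col10a1a had 693 normalized counts, against 615 to 622 in the other 3 pools, so the lowest group of the series also held a pool apart, which still lay below all control pools. In the same replicate col8a2 had 76.2, against 121 to 127, and bmp1a had 1146, against 1006 to 1026. In control replicate 2, col12a1b had 2010.1 normalized counts, against 1416 to 1459 in the other control pools, and col6a1 had 1551, against 1269.7 to 1289.6. These pools were kept.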

How the results depend on the processing

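By limma, the 8 collagen calls at 50 µM became 5 with no mean-variance trend and 4 with an adjusted p under 0.01. In a fit of only the 2 groups compared they became 2, col10a1a and col17a1a. There col11a2 and col5a3b had limma adjusted p-values of 0.0776 and 0.0739. The calls among all genes, 562 in the main fit, became 493, 245 and 182 in the same order. With quantile normalization there were 9 collagen calls (col1a2 and col6a1 added, col15a1b lost), beside 642 of all genes. Leaving out 1 pool gave 4 to 12, with 5 without control replicate 1 or replicate 1 of 50 µM, 4 without control replicate 2 or replicate 4 of 50 µM and 12 without replicate 2 of 50 µM. The same 4 genes, col10a1a, col11a2, col17a1a and col5a3b, were called in all 8 of these fits. The 9 trend calls became 4 with an adjusted p under 0.01 and 4 to 11 on leaving out 1 pool, with 4 without replicate 1 and 5 without replicate 4 of 50 µM. With the 3 outlying pools left out there were 13 trend calls and 11 calls at 50 µM. The 1 call at 20 µM became 2 with quantile normalization (col5a3b added) and 0 in a fit of the 2 groups. At 1.28 µM 1 gene was called with quantile normalization (col1a2) and 1 with the 3 outlying pools left out (col14a1b). At 8 µM the leave-one-out counts were 0 to 1, with col11a2 called without replicate 4 of 8 µM. The 11 pathway calls became 7 with an adjusted p under 0.01, 5 in a fit of the 2 groups and 7 to 16 on leaving out 1 pool, with 7 without replicate 4 and 16 without replicate 2 of 50 µM. The cause of these changes was not tested, beyond the fewer pools or stricter threshold of some. No pairing of the pools by replicate number was seen, which does not exclude one. Of 112 same-number pairs 28 correlated over 0.1. The median correlation was 0.00225 for same-number pairs and 0.00492 for other-number pairs, and 8 of 32 pools correlated best with their own number. With a replicate block, 6 collagen genes were called at 50 µM (col11a1a and col2a1a not), 7 in the trend, 1 at 20 µM and 11 pathway genes. Of 2242 alternative values of the 38 named genes, 2074 kept direction and side of the threshold, 126 lost the threshold, 27 gained it and 15 changed sign, all 15 on leaving out 1 pool and for uncalled values: the trend slopes of col8a2 (-0.00633 to 0.00938) and col28a2a (-0.00962 to 0.00297) and the Log2FC of col6a2 at 50 µM (-0.166 to 0.0281).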
